A study of Capra hircus with 11 samples.

Results

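The miR-130, miR-301 and miR-454 family is a group of 5 mature miRNAs in these data, listed under the bovine names bta-miR-130a, bta-miR-130b, bta-miR-301a, bta-miR-301b and bta-miR-454. They were taken by name as every listed miR-130, miR-301 or miR-454, whatever its letter or arm, which gave 5 of the 637 miRNAs listed over all libraries. The samples are 11 small RNA libraries, each from the omental fat, a visceral fat depot, of a different lactating Alpine goat (Capra hircus). The feed-deprived group is 6 goats that received no feed for the last 48 h before slaughter, and the control group is 5 goats that kept free access to the standard diet. All 11 goats were near the peak of lactation, 48 ± 2 days after kidding when the experiment began, and all had eaten the same orchardgrass hay diet of 35% forage and 65% concentrate for 2 weeks. The fat was taken whole, so the libraries hold every cell type of the tissue.

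A miRNA pairs through its seed, the bases near its 5′ end, with messenger RNAs and lowers their translation or stability. The members of this family share a seed and so can act on the same messages. In human and mouse fat cell precursors miR-130a and miR-130b bind the message of PPARG, the nuclear receptor that drives fat cell formation and lipid storage, and hold differentiation back. No PPARG message or protein was measured here. RefSeq's list of goat genes (ARS1.2) holds all 5 members, at 3 places. MIR130A stands alone between YPEL4 and SERPING1. MIR301A and MIR454 lie next to each other within SKA2, and MIR130B and MIR301B are next to each other on sequence that is not placed on a chromosome. Mature sequences are not printed here.

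Values are the deposited normalised reads, which are whole read counts divided by 1 factor per library. The libraries held 16974441 to 25389788 miRNA reads. Fat-abundant miRNAs were present in every library: the summed level of 7 of them, among them miR-26a, miR-22-3p and miR-193b, ran from 2675790 to 5385970 normalised reads in feed-deprived goats and from 3329170 to 4424980 in controls. Feed-deprived replicate 1 stands apart. It is the deepest library and lists 629 miRNAs where the others list 637. It holds the highest levels of 3 of the 5 members, miR-130b, miR-301b and miR-454. The log2 fold changes, ratio differences and r values described for those 3 are therefore also given without it. The 8 miRNAs that its list leaves out took 0.326% to 0.652% of the reads in the other libraries.

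The family was a small part of the miRNA reads. Its 5 members together took 0.0776% ± 0.0123 of miRNA reads in feed-deprived goats (SD, n = 6) and 0.0663% ± 0.0141 in controls (SD, n = 5). On the normalised scale the sums ran from 12012 to 18653 reads in feed-deprived goats and from 11452 to 16751 in controls. The ranges of the groups overlapped on both scales. No test was made of the sum, since the members were chosen with earlier results of these data known.

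miR-130a and miR-301a carried nearly all of the family's reads. miR-130a took 66.1% ± 6.22 of them in feed-deprived goats and 68.9% ± 6.48 in controls, and miR-301a took 27.4% ± 4.005 in feed-deprived goats and 26.6% ± 5.64 in controls (SD, n = 6 and 5). miR-130b held 3.51% ± 1.97 in feed-deprived goats and 1.98% ± 0.727 in controls. miR-454 held 1.95% ± 0.662 in feed-deprived goats and 1.83% ± 0.487 in controls. miR-301b was the rarest, with 1.04% ± 0.568 in feed-deprived goats and 0.712% ± 0.433 in controls. Some miRNA sequences take adapters more readily than others, so this order ranks reads under this protocol and not molecules.

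**Figure D1:**
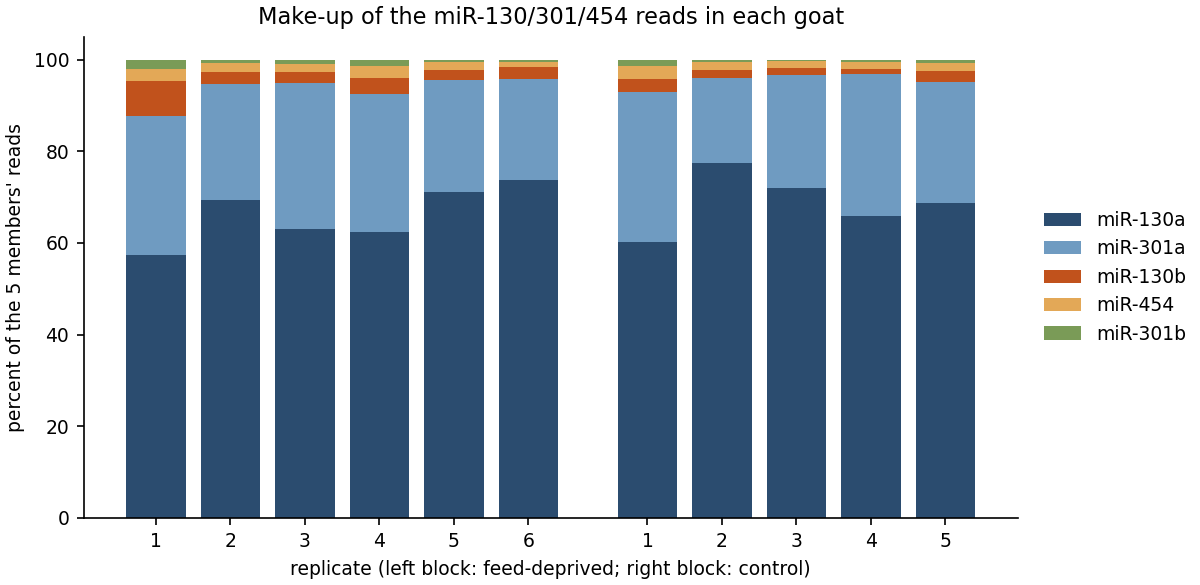
Stacked bars give the percent of the family's reads held by each member in each goat, with the 6 feed-deprived goats in the left block and the 5 controls in the right block. miR-130a is the largest part in every goat, from 57.3% to 73.7% in feed-deprived goats and from 60.3% to 77.5% in controls, and miR-130b is widest in feed-deprived replicate 1, at 7.47%.

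The order of the members was almost the same in every goat. miR-130a came first, miR-301a followed it and miR-301b came last in all 11 libraries. The exception was miR-130b and miR-454, which follow each other in this order but come from separate loci. miR-130b had more reads in all 6 feed-deprived goats and in 3 of the 5 controls, and miR-454 had more in control replicates 3 and 4. Among the 629 miRNAs listed in every library, miR-130a ranked 64 by mean abundance, miR-301a 92, miR-130b 157, miR-454 178 and miR-301b 211.

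No member passed the test of feed-deprived against control goats. The test was limma on log2(value + 1), fitted to the 360 miRNAs with enough reads, and all 5 members were among them. The count in limma was 0 of 5 past a Benjamini-Hochberg adjusted p of 0.05, and 1 of 5, miR-130b, had an unadjusted p under 0.05. Over all 360 tested miRNAs 3 passed in limma, 0.833% of them, all 3 of them higher in feed-deprived goats, and 42 had an unadjusted p under 0.05. The 3 became 1 without any 1 of feed-deprived replicates 1, 4 and 5 or control replicates 2, 3 and 5. The log2 fold change was above 0 for all 5 members under the deposited scaling, with a median of 0.13, but for 2 of 5, miR-130b and miR-301b, with upper-quartile factors. Over the 360 it was above 0 for 183 with a median of 0.0040 under the deposited scaling, and upper-quartile factors moved that median to -0.17.

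miR-130b, a repressor of PPARG in fat cell precursors, had the largest difference of the 5. It stood at 949.6, 381, 389, 408, 399 and 518 normalised reads in feed-deprived goats and at 332, 317, 201, 151.99 and 416 in controls. Feed-deprived replicate 1 was far above all others, replicate 6 was also above every control, and the remaining 4 lay between controls 1 and 5, so the groups overlapped. The means were 507 ± 222 normalised reads in feed-deprived goats (SD, n = 6) and 283 ± 106 in controls (SD, n = 5). The difference was 0.84 on the log2 scale with an SE of 0.306 (limma adjusted p = 0.289), a fold of 1.79 with a 95% interval of 1.14 to 2.83 that is not adjusted for the 360 tests. Of the 360 miRNAs it ranked 20 by p. Without feed-deprived replicate 1 the log2 fold change was 0.64 (limma adjusted p = 0.431), and without control replicate 4 it was also 0.64.

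Its genomic neighbour miR-301b gave a similar picture at lower counts. It held 248, 118, 139, 179, 81.6 and 113 normalised reads in feed-deprived goats and 167, 91.8, 49.3, 71.1 and 108 in controls. Feed-deprived replicates 1 and 4 were above every control, control replicates 3 and 4 were below every feed-deprived goat, and the rest were mixed. The means were 146 ± 59.4 in feed-deprived goats and 97.5 ± 44.8 in controls (SD, n = 6 and 5). On the log2 scale the difference was 0.61 with an SE of 0.332 (limma adjusted p = 0.497) and an interval of -0.11 to 1.32. It was 0.44 without feed-deprived replicate 1, 0.39 without control replicate 3 and 0.83 without control replicate 1. These values rest on 44 to 409 reads per library, for which counting alone gives a coefficient of variation of 4.94% to 15.1%, below the 40.6% seen among feed-deprived goats and the 45.9% among controls.

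miR-130a, the most abundant member and a repressor of PPARG, was nearly level between the groups. It stood at 7287, 9882, 10084, 7498, 12102 and 13745 normalised reads in feed-deprived goats and at 6902, 12982, 10239, 8518 and 11332 in controls. High and low goats occurred in each group, and 5 of the 6 feed-deprived values lay within the range of the controls. The means were 10099.7 ± 2531 in feed-deprived goats and 9994 ± 2373 in controls (SD, n = 6 and 5). This is a log2 fold change of 0.01 with an SE of 0.205 (limma adjusted p = 0.990). The 95% interval of the fold, not adjusted for the number of tests, ran from 0.742 to 1.37, so changes within it were not excluded.

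miR-301a, which is linked to NF-kB signalling in other tissues, varied least among the 5. It stood at 3881, 3603, 5114, 3618, 4161 and 4102 normalised reads in feed-deprived goats and at 3745, 3081, 3506, 4007 and 4329 in controls. Apart from feed-deprived replicate 3, all feed-deprived goats lay within the control range. The coefficient of variation was 13.7% among feed-deprived goats and 12.8% among controls, against 43.8% and 37.4% for miR-130b in those groups. The means, 4080.2 ± 558 in feed-deprived goats and 3734 ± 476 in controls (SD, n = 6 and 5), differed by 0.13 on the log2 scale with an SE of 0.143 (limma adjusted p = 0.872) and an interval of -0.18 to 0.44. That difference was 0.060 without feed-deprived replicate 3 or without control replicate 2.

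miR-454, encoded beside miR-301a, held 354, 269.9, 288, 308, 287 and 175 normalised reads in feed-deprived goats and 306, 279, 214, 195 and 292 in controls. The highest and the lowest goat were both feed-deprived, and the controls lay between them. Its means were 281 ± 59.1 in feed-deprived goats and 257 ± 49.5 in controls (SD, n = 6 and 5), which is 0.12 on the log2 scale with an SE of 0.214 (limma adjusted p = 0.938). It was 0.043 without feed-deprived replicate 1, 0.022 without control replicate 4 and 0.24 without feed-deprived replicate 6. For none of the 5 members were the groups separate, and over all tested miRNAs they were separate for 6, which is 1.67%.

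**Figure D2:**
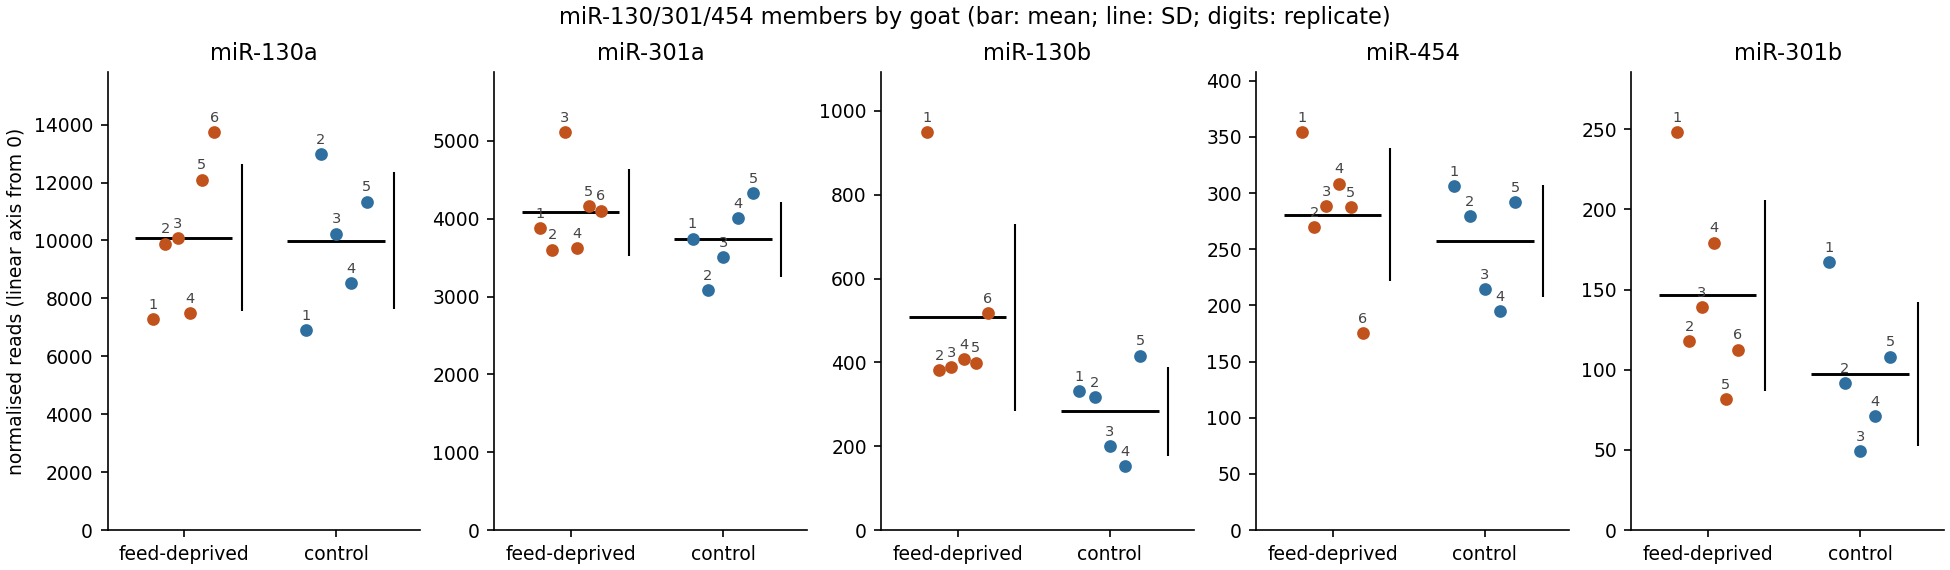
Each panel shows 1 member, with normalised reads on a linear axis from 0, 1 point per goat labelled by its replicate, a bar at the group mean and a line of 1 SD to each side. Feed-deprived replicate 1 is the highest point for miR-130b, miR-454 and miR-301b, and for all 5 members the points of the 6 feed-deprived goats and the 5 controls overlap.

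**Figure D3:**
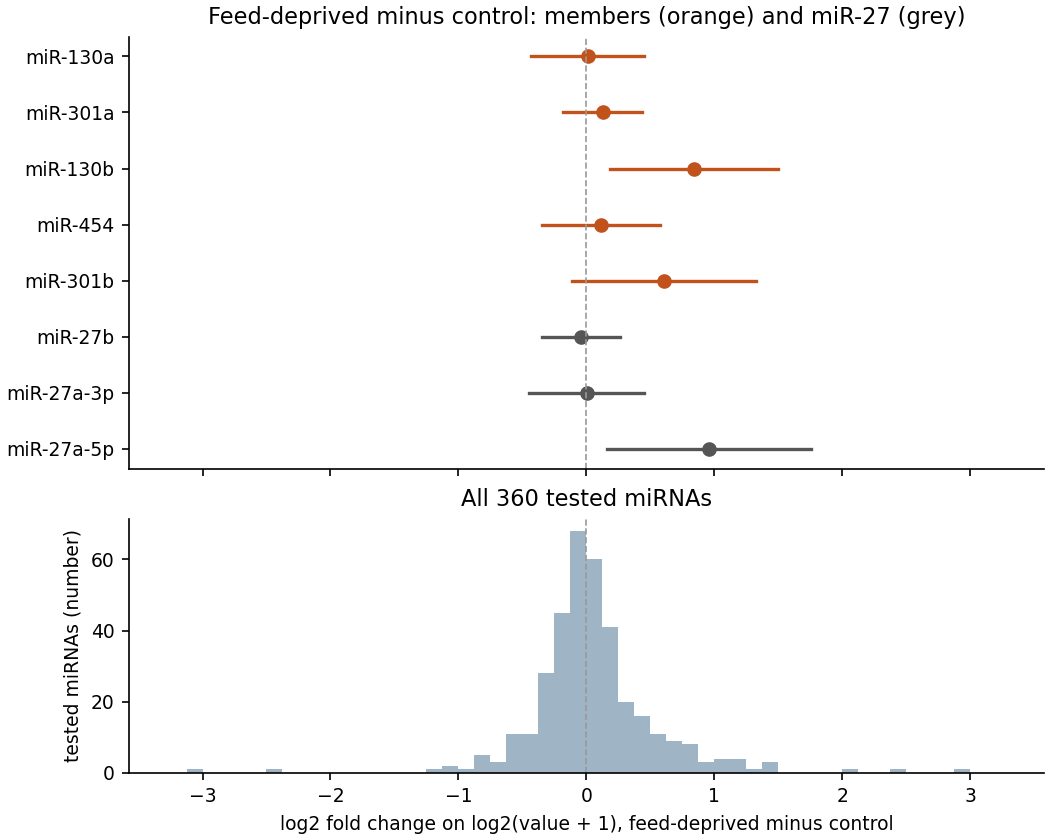
The upper panel gives the log2 fold change of feed-deprived minus control goats with its 95% interval for the 5 members and for miR-27, and the lower panel counts all 360 tested miRNAs by log2 fold change. The intervals of miR-130b (from 0.18) and miR-27a-5p (from 0.16) lie above 0 before adjustment, and those of the other 6 miRNAs span 0.

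Ratios between members within a library do not depend on the scaling factor, so they show whether the make-up of the family differed between the groups. For miR-130b over miR-130a the ratio was 0.130, 0.0386, 0.0385, 0.0544, 0.0330 and 0.0377 in feed-deprived goats and 0.0481, 0.0244, 0.0196, 0.0178 and 0.0367 in controls. Feed-deprived replicates 1 and 4 were above every control, and control replicates 2, 3 and 4 were below every feed-deprived goat. The mean log2 ratio was -4.36 ± 0.737 in feed-deprived goats and -5.19 ± 0.606 in controls (SD), a difference of 0.83 (exact two-sided permutation p = 0.0584 over every split of 6 against 5 goats, adjusted p = 0.175 over 3 ratios). Without feed-deprived replicate 1 the difference was 0.55. For miR-301a over miR-130a the ratio averaged 0.422 ± 0.0978 in feed-deprived goats and 0.395 ± 0.118 in controls, a log2 difference of 0.12 (exact permutation p = 0.643, adjusted p = 0.732). For miR-454 over miR-130a it averaged 0.0304 ± 0.0128 in feed-deprived goats and 0.0271 ± 0.00984 in controls, a log2 difference of 0.10 (exact permutation p = 0.732, adjusted p = 0.732), which was -0.055 without feed-deprived replicate 1. No ratio passed, and the smallest p that these splits allow is 0.00216.

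**Figure D4:**
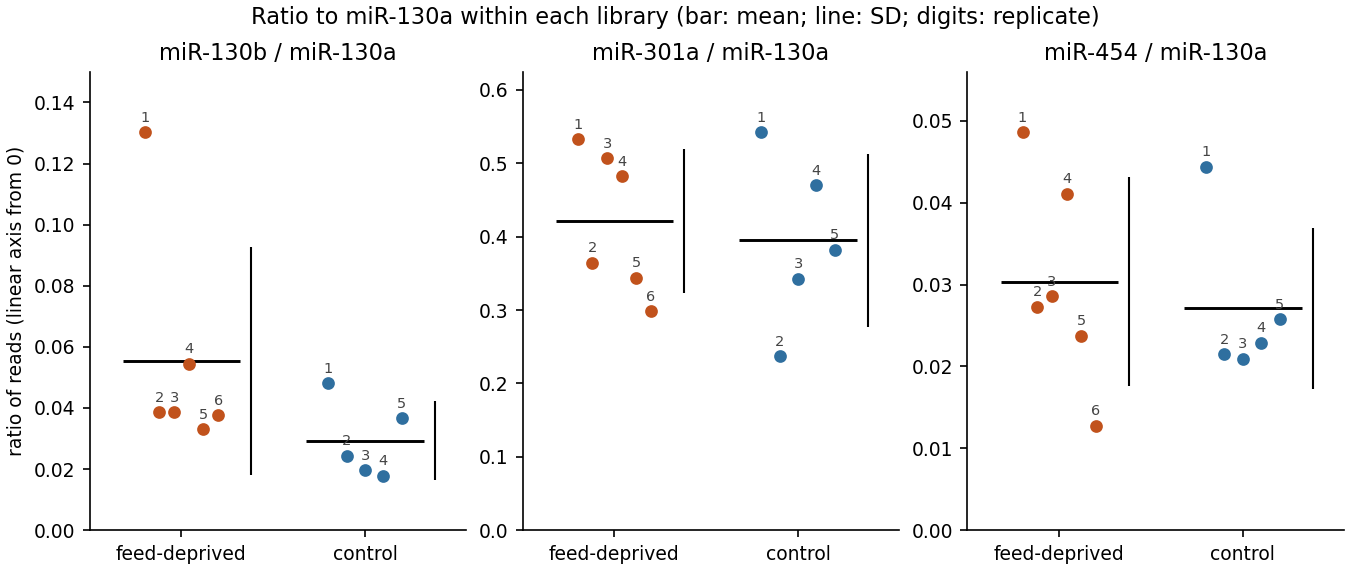
Each panel shows the ratio of 1 member to miR-130a within a library on a linear axis from 0, with 1 point per goat, a bar at the group mean and a line of 1 SD to each side. In the first panel feed-deprived replicate 1 lies at 0.130, while the other 5 feed-deprived goats lie between 0.0330 and 0.0544 and the controls between 0.0178 and 0.0481.

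The same ratios were then formed for all 10 pairs of members, miR-301b included, a choice made after the data were seen. The smallest p belonged to miR-130b over miR-454, at 2.68, 1.41, 1.35, 1.32, 1.39 and 2.95 in feed-deprived goats and 1.08, 1.13, 0.937, 0.779 and 1.43 in controls. Of the 5 controls, 4 were below every feed-deprived goat. Its log2 difference was 0.73 (exact permutation p = 0.0281, adjusted p = 0.245 over the 10), and 0.60 without feed-deprived replicate 1 (exact permutation, adjusted p = 0.397). Neither ratio within a neighbouring gene pair passed. This was not particular to neighbours, since 0 of the 10 ratios passed. From separate loci, miR-301a over miR-130a and miR-454 over miR-130a had log2 differences of 0.12 and 0.10. miR-130b over miR-301b averaged 3.61 ± 1.02 in feed-deprived goats and 3.10 ± 0.973 in controls (exact permutation p = 0.405, adjusted p = 0.578), and miR-454 over miR-301a averaged 0.0699 ± 0.0181 in feed-deprived goats and 0.0699 ± 0.0166 in controls (exact permutation p = 0.963, adjusted p = 0.963). Without feed-deprived replicate 1 the log2 differences of these neighbouring pairs were 0.21 and -0.10, and over all libraries 0.24 and -0.01.

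Members were next compared across goats, as deviations from the mean of each goat's own group on the log2 scale over the 11 libraries. The libraries share a scaling factor across members, and p-values are from 100000 permutations. These shuffled the deviations over all 11 libraries, although deviations sum to 0 within each group, so the p-values can be somewhat too small. Among the 4 members with a mean of 10 CPM or more, 6 pairs were compared, and 0 passed by Pearson's r after adjustment. miR-130b with miR-454, from separate loci, had r = 0.55 (permutation p = 0.0759, adjusted p = 0.423) and rho = 0.77 (permutation p = 0.00703, adjusted p = 0.0422). Its r was 0.33 without the 2 libraries farthest from the median of miR-130b, feed-deprived replicate 1 and control replicate 5, and 0.41 without feed-deprived replicate 1 alone. It was 0.90 without feed-deprived replicate 6, the goat with the lowest miR-454 (permutation adjusted p = 0.0016), so its size turned on single libraries. miR-454 with its neighbour miR-301a had r = -0.08 (permutation p = 0.821, adjusted p = 0.902) and rho = -0.08 (permutation p = 0.817, adjusted p = 0.903), and r was 0.10 without the 2 farthest libraries and -0.03 without feed-deprived replicate 1. miR-454 with miR-130a had r = -0.47 (permutation p = 0.141, adjusted p = 0.423) and rho = -0.52 (permutation p = 0.107, adjusted p = 0.321), and r was also -0.47 without the 2 farthest and -0.35 without feed-deprived replicate 1. The other 3 planned pairs had r between -0.09 and 0.04, and between -0.01 and 0.29 without feed-deprived replicate 1.

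With miR-301b added after the data were seen there were 10 pairs, of which 0 passed by r and 3 by rho. The neighbours miR-130b and miR-301b had r = 0.69 (permutation p = 0.0171, adjusted p = 0.125) and rho = 0.77 (permutation p = 0.00700, adjusted p = 0.0234), and r was 0.55 both without the 2 farthest libraries and without feed-deprived replicate 1 alone. miR-301b with miR-454, from separate loci, had r = 0.66 (permutation p = 0.0251, adjusted p = 0.125) and rho = 0.87 (permutation p = 0.00087, adjusted p = 0.0087), and r was 0.60 without the 2 farthest and 0.58 without feed-deprived replicate 1. The third pair past the threshold by rho was miR-130b with miR-454 (adjusted p = 0.0234 by permutation over the 10). Goats high in miR-301b tended to be low in miR-130a, with r = -0.64 (permutation p = 0.0374, adjusted p = 0.125) and rho = -0.56 (permutation p = 0.0767, adjusted p = 0.192), and r was -0.59 without the 2 farthest and -0.54 without feed-deprived replicate 1. The calls by rho did not hold with every library left out. For miR-130b with miR-301b and with miR-454 they were lost without feed-deprived replicate 1 or any 1 of the 5 controls, with rho from 0.58 to 0.82 and from 0.54 to 0.95 over all 11 omissions. For miR-301b with miR-454 the call was lost without control replicate 1 or 2, with rho from 0.81 to 0.93.

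**Figure D5:**
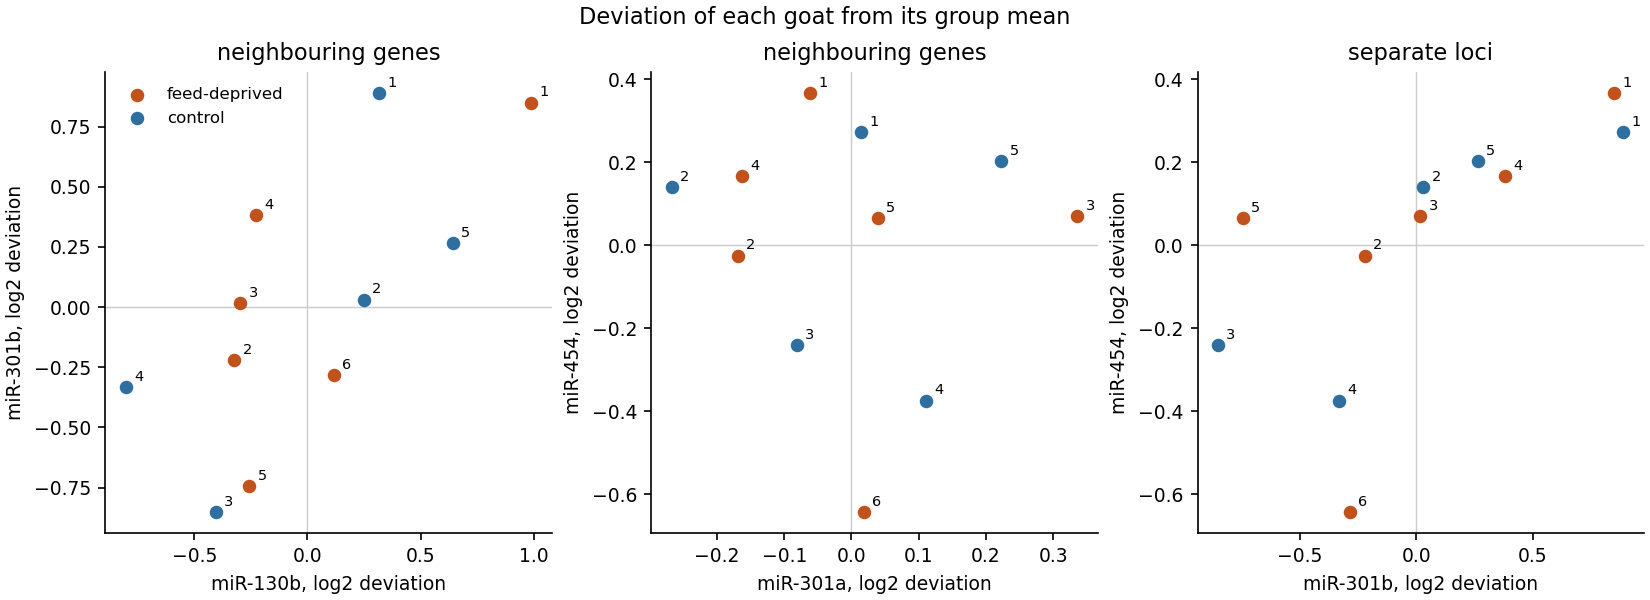
Each point is 1 goat, placed by the deviation of its log2 level from its group mean for 2 members, with feed-deprived goats in orange, controls in blue and digits for replicates. The left and middle panels show the neighbouring gene pairs (r = 0.69 for miR-130b with miR-301b and -0.08 for miR-301a with miR-454), and the right panel shows miR-301b with miR-454 (r = 0.66).

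The miRNAs most like each member across goats were named by the highest Spearman rho of these deviations among the tested miRNAs, given as a description over 11 libraries that share their scaling. For miR-301a they were miR-21-3p (rho 0.93) and miR-29b (0.91). MIR21 lies within 10 genes of MIR301A on the same RefSeq list, and no other miRNA gene outside the family lies that near to a member. miR-21-3p stood at 1255 ± 855 normalised reads in feed-deprived goats and 559 ± 386 in controls (log2 fold change 1.18, limma adjusted p = 0.479), and the main arm miR-21-5p at 234665 ± 78396 in feed-deprived goats and 134545 ± 43611 in controls (0.80, limma adjusted p = 0.218), so neither passed. For miR-454 they were miR-222 (0.91) and miR-221 (0.90), a pair known to act on the cell cycle inhibitor p27. For miR-130a they were miR-375 (0.89) and miR-199a-3p (0.87), and for miR-130b miR-7857-3p and miR-2356 (0.92 each). Of these, miR-7857-3p averaged only 9.78 normalised reads in feed-deprived goats and 20.4 in controls. miR-2356 averaged 82.2 and 33.3 in those groups and miR-375 81.0 and 37.4, while miR-199a-3p was abundant, at 59026 and 61020.5. No chance level was worked out for the highest rho among all tested miRNAs.

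Another miRNA known to bind the PPARG message, miR-27, was far more abundant than the family in its main arms, and none of its arms passed. miR-27b had 588744 ± 66950 normalised reads in feed-deprived goats and 612017 ± 122075 in controls (log2 fold change -0.04, limma adjusted p = 0.984). miR-27a-3p had 51324 ± 7065 in feed-deprived goats and 53353 ± 16809 in controls (log2 fold change 0.0012, limma adjusted p = 0.996). The less abundant arm miR-27a-5p, whose seed differs from that of miR-27a-3p, stood at 1008, 209.999, 268, 276, 199 and 215 normalised reads in feed-deprived goats and at 184, 124, 178, 156 and 127 in controls. All 6 feed-deprived goats were above all controls, and replicate 1 was far above the other 5. The difference was 0.96 on the log2 scale with an SE of 0.369 (limma adjusted p = 0.324), and it was 0.61 without feed-deprived replicate 1 (limma adjusted p = 0.270). On a wider list of 16 miRNAs held to restrain fat cell formation, which includes miR-130a, miR-130b and both miR-27 main arms, 15 were tested, 0 passed in either direction in limma, 12 had a positive log2 fold change (8 with upper-quartile factors) and the median was 0.21, beside 0.0040 over all tested miRNAs. miR-193b, at 7664 ± 1620 normalised reads in feed-deprived goats and 10789 ± 1597 in controls, had the lowest p of that list (log2 fold change -0.51, limma adjusted p = 0.258). Its place on the list is context dependent, and it is also on the fat-abundant list. The list shares miR-155 (log2 fold change 0.40) with the leukocyte markers and miR-145 (-0.04) with those of smooth muscle and fibroblasts.

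Markers of other cells were read beside the family, since in whole tissue fewer cells of a type and less RNA per cell cannot be told apart. All 7 leukocyte miRNAs had positive log2 fold changes (5 with upper-quartile factors) with a median of 0.40, and 1 of them, miR-142-5p, passed, at 28704 ± 5802 normalised reads in feed-deprived goats and 16568 ± 2857 in controls (limma adjusted p = 0.0371). That call was lost without any 1 of feed-deprived replicates 1, 4 and 5 or control replicates 2, 3, 4 and 5, and the adjusted p in limma with 1 library left out ran from 0.0291 to 0.0880. Their summed level ran from 59461 to 87683 normalised reads in feed-deprived goats and from 46597 to 64712 in controls, and none of the 7 was at 0. miR-223, a myeloid miRNA, stood at 3458 normalised reads in feed-deprived replicate 1, the goat with the most miR-130b, and at 595 to 963 in the other 5 feed-deprived goats and 86.2 to 753 in controls. The summed leukocyte level of that goat, 71848, was near the feed-deprived median of 72557. Its largest parts were miR-142-5p (28801) and miR-146a (17603), so the sum cannot show whether myeloid cells differed. That goat had the lowest sums of all goats for the fat-abundant list (2675790) and for smooth muscle and fibroblasts (3521870). The fat-abundant sum was mostly miR-26a, which averaged 2518610 normalised reads in feed-deprived goats. The smooth muscle and fibroblast sum was nearly all miR-143, which averaged 5080730 there. These sums thus follow 1 miRNA each and cannot show whether those cells differed. The endothelial and red cell sums of that goat lay within the range of the other goats. The mix of cells in it was not tested. All 3 red cell miRNAs were also positive (2 with upper-quartile factors), with a median of 0.62 and sums of 131837 to 348041 in feed-deprived goats and 116344 to 331505 in controls, and 0 of them passed. The part of these cells in the miR-130b and miR-301b values was not tested. The 3 endothelial miRNAs and the 4 of smooth muscle and fibroblasts had negative log2 fold changes with medians of -0.20 and -0.11, while with library totals 2 of 3 and 2 of 4 were negative. Among the 4 tested miRNAs of striated muscle 2 were positive, of 4 tested in epithelium 3 were, and of 7 abundant in fat 2 were (0, 2 and 1 with upper-quartile factors, and 3, 3 and 5 with library totals), and no miRNA of these 5 lists passed. miR-122 of liver was not tested, at 3.91 to 84.6 normalised reads in feed-deprived goats and 1.08 to 147 in controls.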

How the data were processed

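Small RNA was sequenced from the omental fat of 11 goats. Per the labels' protocols, TruSeq libraries were made with 13 cycles of PCR, cut from a gel at 140 to 160 nt, and read for 50 bases. The labels mention no molecular identifier, so reads are not independent molecules. The authors deposited 1 normalised signal per mature miRNA under bovine names, so goat bases that differ from bovine ones, and reads shared by near-identical members, could shift values. The aligner, miRNA database, build and normalization used are not given in the sources at hand. In every library 100% of non-zero values were whole multiples of the smallest, within 0.001 read, which recovers whole reads. The recovered factors matched median-of-ratios factors within ratios of 0.997 to 1.002.

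In R 4.3.3, limma 3.58.1 (variance trend, robust, two-sided) was run on log2(value + 1), a scale that understates changes at few reads. Of the 629 miRNAs listed in every library, filterByExpr at a minimum count of 10 kept 360. edgeR 4.0.16, DESeq2 1.42.0 and voom on recovered reads were alternatives, beside other pseudocounts, filters, scalings and each library left out. The fit was tested on simulated data. Ratios used exact permutation tests. The rule for naming took all members, for each member with a mean of 10 CPM or more the 2 tested miRNAs most like it, miR-27, genomic neighbours, an anti-adipogenic list and marker lists for 8 cell types or tissues. Its part on neighbouring seeds was not applied. Members and lists were chosen with earlier results of these data known. Each library is a separate goat.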

Additional observations from a re-analysis of the deposited data

Results flagged for a closer look

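Each of 24 sets of values, 1 group at a time, was searched for a goat lying apart. For independent sets of normally distributed values chance alone gives about 1 in 20, and here 6 sets had one. The sets overlap, since the ratios and the family share reuse the members' values, so the 6 cannot be set against that rate. Feed-deprived replicate 1 was high for miR-130b, at 949.6 normalised reads beside 381 to 518 in its group, for miR-27a-5p, at 1008 against 199 to 276, and for the ratio of miR-130b to miR-130a, at 0.130 against 0.0330 to 0.0544. Feed-deprived replicate 3 was high for miR-301a, at 5114 normalised reads against 3603 to 4161. Feed-deprived replicate 4 had a low family share, at 0.0537% of miRNA reads against 0.0769% to 0.0869%. Control replicate 1 was high for the ratio of miR-454 to miR-130a, at 0.0444 against 0.0209 to 0.0257.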

How the results depend on the processing

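No paired analysis was possible because each library is a different goat and the labels pair none of them. The replicate numbers only count goats within a group. Over 22 alternative fits, 0 members passed in each. All 5 were tested in each except at a mean of 10 CPM or more, where miR-301b was left out and 4 were tested. miR-130b kept a positive log2 fold change of 0.64 to 1.00 (adjusted p 0.155 to 0.487) and miR-301b one of 0.39 to 0.83 (0.318 to 0.814). Upper-quartile factors, which move the median of all miRNAs to -0.17, gave miR-130a -0.17, miR-301a -0.052, miR-454 -0.063 and miR-27a-3p -0.18. voom gave miR-130a -0.0054 and miR-27a-3p -0.016, edgeR -0.056 and DESeq2 -0.063 for miR-27a-3p, and library totals, which move that median to 0.16, gave miR-27b 0.12. The cause was not tested. Leaving out 1 library moved miR-130a between -0.11 and 0.11, miR-27a-3p between -0.20 and 0.11, miR-27b between -0.12 and 0.062, miR-301a between 0.060 and 0.18, and miR-454 between 0.022 and 0.24.

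The number of higher miRNAs, 3, was 0 with a mean of 10 CPM or more, 7 with library totals, 9 in DESeq2 and 1 to 4 without 1 library. The lower number, 0, was 1 with upper-quartile factors, library totals and voom, and 0 to 1 without 1 library, with the 1 found without feed-deprived replicate 6. Members at an unadjusted p under 0.05, 1 of 5, numbered 2 without feed-deprived replicate 5 or control replicate 1 and 0 without control replicate 4. miR-142-5p, called at an adjusted p of 0.0371, was at 0.0549 with no filter, 0.0530 at 10 CPM, 0.0954 with upper-quartile factors, 0.0950 without trend and robust moderation and 0.0030 in DESeq2. Without the 10 most abundant miRNAs in the denominator, the family share was 0.379% in feed-deprived goats and 0.350% in controls. Without 1 library the miR-130b ratio difference ran from 0.55 to 1.03. That of miR-301a ran from -0.054 to 0.24 and that of miR-454 from -0.055 to 0.33. Of the ratios added later, miR-130b over miR-301b ran from 0.092 to 0.36 and miR-454 over miR-301a from -0.13 to 0.12. The pairs past the threshold by r numbered 0 to 1. Over the same fits r ran from -0.25 to 0.29 for miR-130b with miR-130a, from -0.31 to 0.10 for miR-130b with miR-301a, from -0.21 to 0.022 for miR-454 with miR-301a and from -0.10 to 0.35 for miR-301a with miR-130a. With the group mean kept, miR-130b with miR-301a had r = 0.19.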
